A study of Mus musculus with 7 samples.

Results

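The genes described here are the potassium, sodium and HCN channel genes of the medial prefrontal cortex, with their accessory subunits. They were chosen by symbol. Every gene of the authors' deposited table whose symbol starts with Kcn was taken, except the antisense RNA Kcnq1ot1, together with the voltage-gated sodium channel genes (Scn, a number, then a or b) and the HCN genes (Hcn, then a number). This gave 108 of the 17732 listed genes. Of these, 88 were Kcn genes other than antisense RNAs, 13 were sodium channel genes, 4 were HCN genes and 3 were antisense RNAs (Kcnd3os, Kcnmb4os1 and Kcnmb4os2). Bulk polyadenylated RNA had been sequenced from male wild-type (WT) 129SvEv mice sampled after remote memory retrieval, with 3 libraries labelled CFC and 4 labelled SC. CFC and SC are written here as in the labels, which leave them unexplained. Both groups share strain, sex, genotype and retrieval. The animals' age and the number of animals in each library are not given in the sources used here. The p-values therefore measure the spread between these libraries, which may be technical. Values of single libraries were not analysed here. For each gene, the authors' deposited table gives a mean normalized count over the libraries, a log2 fold change between the groups and its standard error, which carries the spread between libraries. The numerator group of that fold change is not stated, so a difference is called positive or negative after its sign in that table, and neither group is called higher. Below, a log2 difference is that log2 fold change, and SE is its deposited standard error.

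Ion channels set how a neuron turns synaptic input into action potentials. Voltage-gated sodium channels drive the upstroke of the spike, and potassium channels bring the membrane back to rest and set how soon the next spike can follow. HCN channels open when the membrane is hyperpolarized and carry a depolarizing current that shapes dendritic integration and rhythmic firing. Channels of the Kcnc (Kv3) subfamily open and close quickly at depolarized voltages and are known for enabling the fast, narrow spikes of parvalbumin interneurons. Kcns3 encodes a modulatory subunit that is also known from those cells.

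Most pore-forming members share a short coding motif. The choice by symbol did not search for it, but the symbols name channel families, so motif and choice are not independent. The potassium channel signature sequence lines the narrowest part of the pore and selects for potassium. It was searched in frame in 1 coding sequence per gene of GENCODE M21, as 12 bases that code for valine, isoleucine or leucine, then glycine, tyrosine or phenylalanine, and glycine. At least 1 match was found in 76 of the 105 members with a coding sequence, against 3.11% of the 21773 coding genes searched. All 4 Kcnc, 7 Kcna, 8 Kcnh, 14 Kcnj and 4 Hcn coding sequences held it, and 9 of the 12 Kcnk (tandem pore) sequences held 2 matches. The accessory subunits Kcnab, Kcnip, Kcne and Kcnmb and the sodium channel beta subunits held none, and of the 9 sodium channel alpha subunits Scn1a alone held a match. The search covered whole coding sequences and not the pore alone. A match such as that in Scn1a therefore does not by itself mark a potassium-selective pore. The stretches below are shown for members of the main families described here, with the 12 signature bases in capitals. Each is 60 bases of coding sequence within 1 exon, 5′ to 3′ on the gene's strand, from GENCODE M21 transcripts on GRCm38.
Kcna1, chr6:126642204-126642263, minus strand: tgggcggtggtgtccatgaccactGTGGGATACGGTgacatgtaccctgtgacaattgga
Kcnc1, chr7:46427952-46428011, plus strand: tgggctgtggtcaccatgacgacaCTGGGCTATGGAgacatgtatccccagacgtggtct
Kcnc2, chr10:112456208-112456267, plus strand: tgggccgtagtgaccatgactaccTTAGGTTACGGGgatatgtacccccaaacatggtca
Kcnh3, chr15:99232908-99232967, plus strand: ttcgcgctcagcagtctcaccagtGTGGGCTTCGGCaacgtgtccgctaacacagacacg
Kcnk9, second match, chr15:72512695-72512754, minus strand: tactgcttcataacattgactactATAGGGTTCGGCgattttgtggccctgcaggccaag
Hcn2, chr10:79728932-79728991, plus strand: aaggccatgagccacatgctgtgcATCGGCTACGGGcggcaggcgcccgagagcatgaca
Hcn4, chr9:58855564-58855623, plus strand: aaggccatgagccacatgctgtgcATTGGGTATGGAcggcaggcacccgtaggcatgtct
The Hcn2 and Hcn4 stretches carry the signature, and HCN channels are known to pass sodium as well as potassium.

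No channel gene passed the threshold on the adjusted p-value. The authors gave an adjusted p-value for 86 of the 108 members, those above their limit on the mean count, and 0 of the 86 were under 0.05 by the authors' Wald test (DESeq2 in the submitters' processing notes). Of the 13060 genes that have an adjusted p-value, 67 were under it, which is 0.513%. An unadjusted p-value under 0.05 belonged to 15 channel genes, or 17.4% of the 86, where the share over all genes was 8.1%. Of these 15, 5 were positive (5.81% of the 86, against 4.56% of all genes) and 10 were negative (11.6%, against 3.54%). These shares describe the list and were not tested, because genes are not replicates and the list was chosen with earlier results known. In bulk tissue, fewer cells of a type and less RNA per cell cannot be told apart.

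The differences were small. Among the 86 members, 40 log2 fold changes were positive and 46 negative in the authors' deposited table (median -0.012), beside a median of -0.0017 over the 13060 genes. Their quartiles were -0.096 and 0.075. The median size without sign was 0.078 for the channel genes and 0.070 for all genes. The 95% confidence interval was computed from the log2 difference and its SE under a normal distribution. It lay wholly within a 1.25-fold change in 47 of the 86 and within a 1.5-fold change in 74. These are 54.7% and 86.0% of the 86, against 61.1% and 87.9% of the 13060 genes, so the channel genes were not bounded more closely than others. All 40 members with a mean count of at least 1000 had intervals within a 1.5-fold change. Of these 40, 32 had intervals within a 1.25-fold change. For most abundant channels the libraries thus bound the difference closely, but less so for Scn1a. For some members with a mean count under 1000 the libraries did not. Kcng1, whose interval ran from -0.51 to 0.70, was not rare among the 86. Its mean count was 771, beside a median of 792 over the 86. Its SE was 0.31, where Kcnh2, at a mean count of 701, had an SE of 0.088.

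**Figure D1:**
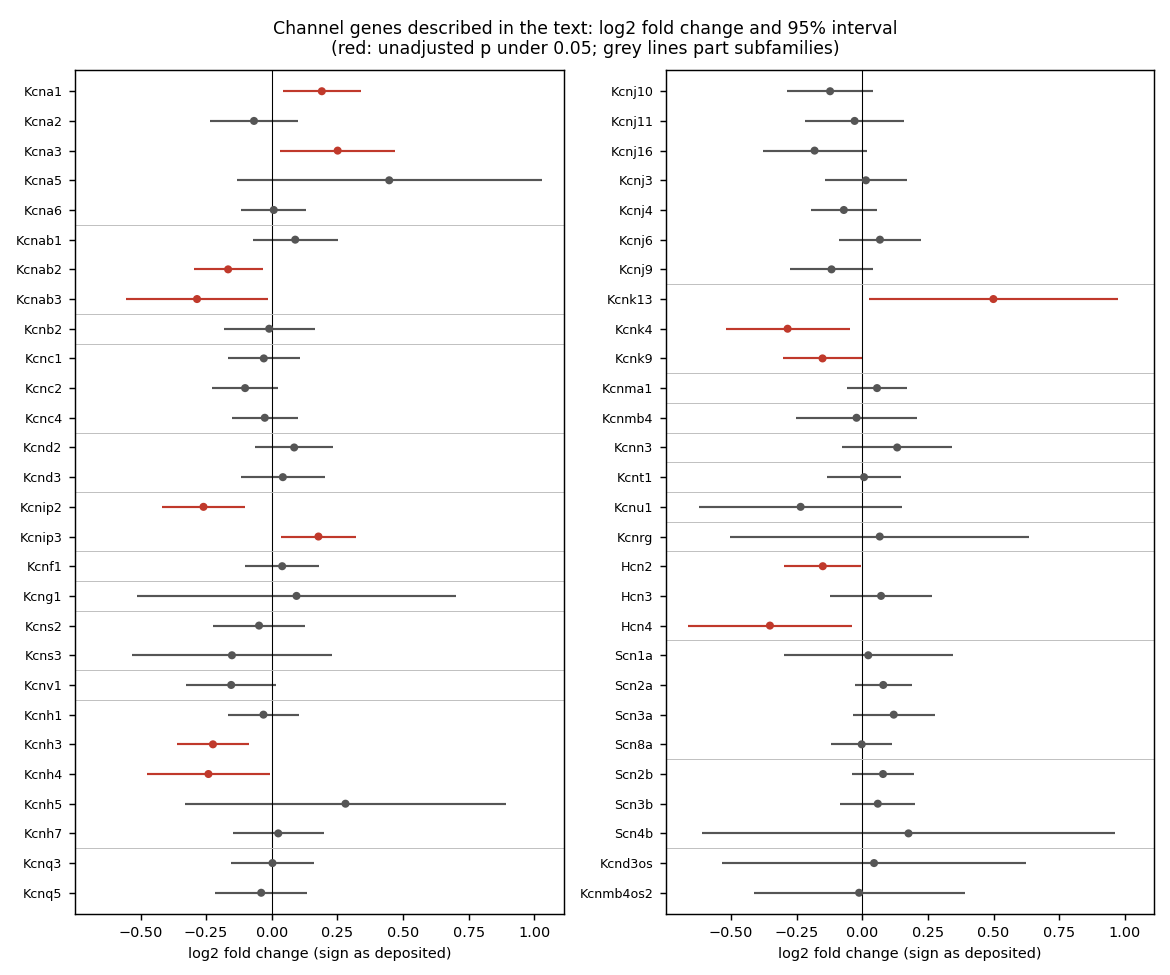
Log2 fold change of the 56 channel genes that have an adjusted p-value and are described in the text (horizontal axis, sign as in the authors' deposited table, points) with its 95% confidence interval (bars), by subfamily. The 13 genes in red have an unadjusted p-value under 0.05, and none of the 56 has an adjusted p-value under 0.05.

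The fast-spiking set comprised the 4 Kcnc genes and Kcns3, and none of the 5 reached an unadjusted p-value of 0.05. All 5 log2 fold changes were negative in the authors' deposited table, with a median of -0.10. Kcnc1, the Kv3.1 subunit concentrated in fast-spiking interneurons, had a log2 difference of -0.030 (SE 0.070) at an adjusted p of 0.999 in the authors' deposited table. Its 95% interval ran from -0.17 to 0.11. Kcnc2 (Kv3.2) had a log2 difference of -0.10 (SE 0.064) at an adjusted p of 0.823 in the authors' deposited table. Both intervals exclude a 1.25-fold change. In the authors' deposited table, Kcnc4 (Kv3.4) stood at -0.027 (SE 0.065), with an adjusted p of 0.999. Kcns3 was much rarer, with a mean count of 84.6 and a log2 difference of -0.15 in the authors' deposited table. Its interval, from -0.53 to 0.23, was the widest of the set. Levels per length were 419 for Kcnc1, 417 for Kcnc4, 343 for Kcnc2 and 26.7 for Kcns3, in mean normalized counts per kb of exon.

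The Kcna genes encode Kv1 channels, low-threshold potassium channels of axons, and the Kcnab genes their cytoplasmic beta subunits. Among the 6 Kcna genes with an adjusted p-value 5 were positive, with a median log2 difference of 0.17 in the authors' deposited table, and among the 3 Kcnab genes 2 were negative, with a median of -0.17. Kcna1 (Kv1.1, GRCm38 chr6:126640397-126646384), which limits axonal excitability, had a log2 difference of 0.19 (SE 0.076). Its unadjusted p-value was 0.0125 and its adjusted p-value 0.391 in the authors' deposited table. Kcna3 (Kv1.3), also present in immune cells, had a log2 difference of 0.25 (SE 0.11), with p = 0.0243 before and 0.513 after adjustment, in the authors' deposited table. The exception in sign was Kcna2 (Kv1.2), the most abundant Kcna gene, which forms mixed channels with Kv1.1 beside the node of Ranvier. Its log2 fold change was -0.068 (SE 0.086) in the authors' deposited table, and its interval ran from -0.24 to 0.10. Per kb of exon, Kcna2 had 699 mean normalized counts, Kcna1 322, Kcna6 318, Kcna3 197 and Kcna5 20.4.

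Of the beta subunits, Kcnab2 had the highest mean count and a log2 difference of -0.17 (SE 0.067) in the authors' deposited table. Its unadjusted p-value there was 0.0131 and its adjusted p-value 0.398. Kcnab3 was also negative, at -0.28 (SE 0.14), with p = 0.0384 before and 0.598 after adjustment in the authors' deposited table. Kcnab1, whose product speeds the inactivation of Kv1 channels, was at 0.089 (SE 0.082) in the authors' deposited table. Thus the Kv1 pore genes with an unadjusted p-value under 0.05 carried a sign opposite to that of the beta subunit genes that met it. The difference between the Kcna and Kcnab genes was not tested. Exons of Kcnab2 overlap those of Gm16334 on the same strand by 125 bases, and those of Kcnab3 overlap its antisense RNA Kcnab3os by 147 bases, in GENCODE M21.

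Kv2 channels, encoded by the Kcnb genes, carry the delayed rectifier current of the soma, and the Kcnf, Kcng, Kcns and Kcnv genes encode silent subunits that form channels only together with Kv2 partners. Of 12 such genes 10 had an adjusted p-value, 3 were positive and 7 negative, and none had an unadjusted p-value under 0.05. Kcnb2 had a log2 difference of -0.0098 (SE 0.089) in the authors' deposited table. Its interval, from -0.18 to 0.16, excludes a 1.25-fold change. The silent subunits Kcnf1 and Kcns2 were at 0.040 and -0.048 (SE 0.072 and 0.089) in the authors' deposited table. Kcnv1 came nearest to the unadjusted threshold, at a log2 difference of -0.15 (SE 0.088) at an unadjusted p of 0.0791 in the authors' deposited table. For Kcng1 the difference was poorly resolved, at 0.094 (SE 0.31) in the authors' deposited table.

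The Kv4 channels of the Kcnd genes carry the dendritic A-type current, and the KChIP proteins of the Kcnip genes are calcium-binding subunits that bring Kv4 to the membrane and tune its gating. The KChIP genes held the smallest unadjusted p-value among the 86. Kcnip2 (KChIP2, GRCm38 chr19:45791839-45816061) had a mean count of 1858 and a log2 difference of -0.26 (SE 0.081) in the authors' deposited table. Its interval ran from -0.42 to -0.10, with p = 0.00129 before and 0.136 after adjustment in the authors' deposited table. Kcnip3 (KChIP3, also known as DREAM, a calcium-regulated transcriptional repressor) was positive, at 0.18 (SE 0.074), with p = 0.0158 before and 0.43 after adjustment in the authors' deposited table. The intervals of Kcnip2 and Kcnip3 do not overlap, but both genes were measured in the same libraries and their difference was not tested. The mean levels of this pair were close, at 534 and 527 mean normalized counts per kb of exon. The pore genes Kcnd2 and Kcnd3 were near 0, at log2 differences of 0.085 and 0.042 (SE 0.076 and 0.082) in the authors' deposited table.

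The Kcnh genes encode channels of the ether-à-go-go group, which fall into the Eag, Erg and Elk types. Kcnh3 and Kcnh4, both of the Elk type, were negative with unadjusted p-values under 0.05. Kcnh3 (GRCm38 chr15:99224861-99242817), a channel of forebrain pyramidal neurons, had a mean count of 3716 and a log2 difference of -0.22 (SE 0.071) in the authors' deposited table. Its interval ran from -0.36 to -0.086, with p = 0.00153 before and 0.149 after adjustment in the authors' deposited table. Kcnh4 had a log2 difference of -0.24 (SE 0.12), with p = 0.0436 before and 0.623 after adjustment in the authors' deposited table. The third Elk gene, Kcnh8, had a mean count of 7.12 and no adjusted p-value there. Kcnh7 (Erg3), with the highest mean count of the subfamily, was at 0.025 (SE 0.089) in the authors' deposited table, and Kcnh1 (Eag1) at -0.032 (SE 0.069). Per kb of exon, Kcnh3 had 646 mean normalized counts against 375 for Kcnh1 and 330.0 for Kcnh7.

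The Kcnq genes encode the Kv7 channels of the M-current, a slow potassium current that acetylcholine suppresses. Of 5 Kcnq genes 4 had an adjusted p-value, 1 was positive and 3 negative, and none had an unadjusted p-value under 0.05. Kcnq3 and Kcnq5, both of which form channels in cortical neurons, were at 0.0026 and -0.040 (SE 0.080 and 0.090) in the authors' deposited table. The interval of each, from -0.15 to 0.16 for Kcnq3 and from -0.22 to 0.14 for Kcnq5, excludes a 1.25-fold change. The 4 Kcne genes, which encode small membrane partners of Kv7 and other channels, had mean counts from 3.15 for Kcne3 to 23.1 for Kcne1l and no adjusted p-value in the authors' deposited table.

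Inward rectifiers, encoded by the Kcnj genes, hold the resting potential, couple to G proteins (Kcnj3, Kcnj5, Kcnj6 and Kcnj9) or to the cell's energy state (Kcnj8 and Kcnj11), or clear potassium in astrocytes (Kcnj10 and Kcnj16). Of 14 Kcnj genes 9 had an adjusted p-value, 3 were positive and 6 negative, and none of the 9 had an unadjusted p-value under 0.05. Kcnj10 (Kir4.1), with the highest mean count, had a log2 difference of -0.12 (SE 0.083) in the authors' deposited table. Its usual partner Kcnj16 was at -0.18 (SE 0.10) at an unadjusted p of 0.0713 in the authors' deposited table. Both intervals include 0. The G protein-coupled genes Kcnj3, Kcnj6 and Kcnj9 were at 0.013, 0.067 and -0.12 (SE 0.079, 0.079 and 0.080) in the authors' deposited table. Per length, the highest of the subfamily was Kcnj4 (Kir2.3), at 1146 mean normalized counts per kb of exon, above Kcnj10 at 695.

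The Kcnk genes encode tandem pore channels that carry background potassium current. In this subfamily 3 of 9 genes had an unadjusted p-value under 0.05, where 8.1% of all genes did. Kcnk4 (TRAAK), a mechanosensitive channel of the node of Ranvier, had a log2 difference of -0.28 (SE 0.12), with p = 0.0181 before and 0.45 after adjustment in the authors' deposited table. Its exons overlap those of Catsperz on the same strand by 587 bases in GENCODE M21, so reads of this pair may not be separable. Kcnk9 (TASK-3), an acid-sensitive channel and the most abundant of the subfamily by mean count, was at -0.15 (SE 0.076), with p = 0.0461 before and 0.629 after adjustment in the authors' deposited table. Kcnk13, known from microglia, was positive at 0.50 (SE 0.24), with p = 0.0391 before and 0.601 after adjustment in the authors' deposited table. Kcnk13 had a mean count of 62.3. The microglia list (Csf1r, Cx3cr1, P2ry12 and Tmem119) had 0 positive and 4 negative genes, and its part in the value of Kcnk13 was not tested.

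Calcium- and sodium-activated potassium channels end bursts and set the afterhyperpolarization. They comprised Kcnma1 (BK) with its Kcnmb beta subunits, the Kcnn (SK) genes and the Kcnt (sodium-activated) genes. Kcnu1 is counted with them here, though its channel is not known as calcium- or sodium-activated. Of 11 genes 9 had an adjusted p-value, 5 were positive and 4 negative, and none had an unadjusted p-value under 0.05. Kcnma1, one of the most abundant channel genes, had a log2 difference of 0.056 (SE 0.058) and an interval from -0.059 to 0.17, computed from the authors' deposited table. Kcnmb4, its neuronal beta subunit, was at -0.022 (SE 0.12) in the authors' deposited table. Exons of Kcnmb4 overlap those of Kcnmb4os1 and Kcnmb4os2 on the other strand in GENCODE M21, so reads of these 3 members may not be separable. Kcnt1 and Kcnn3 were at 0.0063 and 0.13 (SE 0.071 and 0.11) in the authors' deposited table.

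Among the 4 HCN genes, Hcn2 and Hcn4 were negative with unadjusted p-values under 0.05, while the other two were positive and did not meet it. Hcn4, the slowest-gating member and known from pacemaker and thalamic cells, had the lowest log2 difference of the 86. It had a mean count of 174 and a log2 difference of -0.35 (SE 0.16) in the authors' deposited table. The unadjusted p-value of Hcn4 was 0.027 and its adjusted p-value 0.526 in the authors' deposited table. Hcn2 had a log2 difference of -0.15 (SE 0.075), with p = 0.0439 before and 0.623 after adjustment in the authors' deposited table. Both intervals end close below 0, at -0.040 for Hcn4 and -0.0042 for Hcn2. Hcn3 was at 0.071 (SE 0.099) in the authors' deposited table. Per kb of exon Hcn2 had 678 mean normalized counts. The HCN accessory protein gene Pex5l (TRIP8b), which carries HCN channels to distal dendrites, is not a member by symbol and is named because of its value. In the authors' deposited table it had a log2 difference of 0.25 (SE 0.076), with p = 0.0011 before and 0.127 after adjustment.

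The sodium channel genes comprised 9 pore-forming alpha subunits and 4 beta subunits, of which 11 had an adjusted p-value. Of these 11, 8 were positive and 3 negative. Scn2a and Scn8a (Nav1.2 and Nav1.6, the channels of the axon initial segment of pyramidal neurons) had the smallest errors of the sodium channel genes. The log2 differences were 0.080 and -0.0026 (SE 0.055 and 0.059) in the authors' deposited table. Intervals from -0.029 to 0.19 for Scn2a and from -0.12 to 0.11 for Scn8a exclude a 1.25-fold change. Scn1a (Nav1.1), the main sodium channel of parvalbumin interneurons, was at 0.022, with a standard error of 0.16 that leaves an interval from -0.30 to 0.34, computed from the authors' deposited table. Scn3a (Nav1.3), an embryonic channel with lower adult levels, was at 0.12 (SE 0.080) in the authors' deposited table.

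Beta subunits are single-pass membrane proteins that tune sodium channel gating and bind adhesion molecules. Scn2b, Scn3b and Scn4b were at 0.079, 0.059 and 0.18 (SE 0.061, 0.073 and 0.40) in the authors' deposited table. The error of Scn4b, whose product enables resurgent sodium current in fast-firing neurons, was the largest of the 86.

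Outside these families, Kcnrg, whose product regulates potassium channel assembly, was at 0.066 (SE 0.29) in the authors' deposited table. Of the 3 antisense RNAs 2 had an adjusted p-value, 1 positive and 1 negative, and neither had an unadjusted p-value under 0.05. The other 22 channel genes had too few counts for an adjusted p-value in the authors' deposited table. Of these 22, 2 had an unadjusted p-value under 0.05, where the share over all genes without an adjusted p-value was 3.23%, and both are named because of their values. Kcnj5, a G protein-coupled inward rectifier subunit, had a log2 difference of 2.01 (SE 0.63) with p = 0.00132 in the authors' deposited table, where its mean count was 10.6. Kcng4, a silent subunit, had a log2 difference of -1.03 (SE 0.39) with p = 0.00849 in the authors' deposited table, where its mean count was 26.1. With the Benjamini-Hochberg adjustment over every listed p-value their adjusted p-values were 0.159 and 0.389. Whether 1 library sets these values was not tested. The remaining 20 genes include Scn10a and Scn11a, sodium channels of sensory neurons, whose mean counts in the authors' deposited table were 3.65 and 2.2.

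Levels per length, in mean normalized counts per kb of exon, were 1146 for Kcnj4, 1048 for Scn2a, 1041 for Scn2b, 721 for Scn8a and 699 for both Kcna2 and Kcnab2. These are examples and not a ranking of all members. The median over the 86 was 146, beside 114 over the 13060 genes. These are means over all 7 libraries with no spread, so close levels cannot be called different, and the annotated exon length holds UTRs that a given cell may not use.

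**Figure D2:**
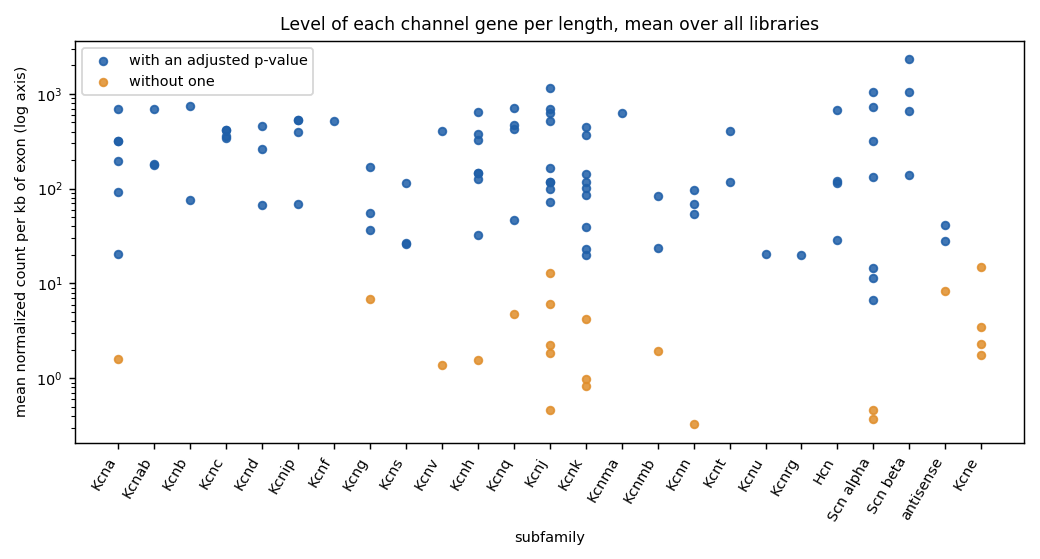
Mean normalized count per kb of annotated exon (vertical log axis) of each of the 108 channel genes, by subfamily (horizontal axis), with the 86 that have an adjusted p-value in blue and the other 22 in orange. The 4 Kcne genes all lie among those without an adjusted p-value.

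Some members had errors well above those of equally abundant genes. The deposited standard error was set against a running median over genes of similar mean count, as a ratio. The median ratio was 1.11 over the 86 and 0.998 over the 13060 genes. A ratio above 2 was found for 4 members, or 4.65%, beside 1.85% of all genes. They were Scn4b at 4.7, Kcng1 at 3.77, Kcnh5 at 3.49 and Scn1a at 2.7. Kcng1 and Kcnh5 encode a silent subunit and an Eag channel, and Kcnh5 had a log2 difference of 0.28 (SE 0.31) in the authors' deposited table. Among cell type markers, the median ratio was 6.63 for 10 oligodendrocyte genes and 3.45 for 8 striatal genes. In the parvalbumin interneuron list Syt2 had a ratio of 4.03 and Pvalb of 2.52, and the list's median was 1.15. Whether these cells take part in the errors of the 4 channel genes was not tested. In the fast-spiking set the ratios were 1.16 for Kcnc1, 1.0 for Kcnc2, 0.926 for Kcnc4 and 0.963 for Kcns3.

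**Figure D3:**
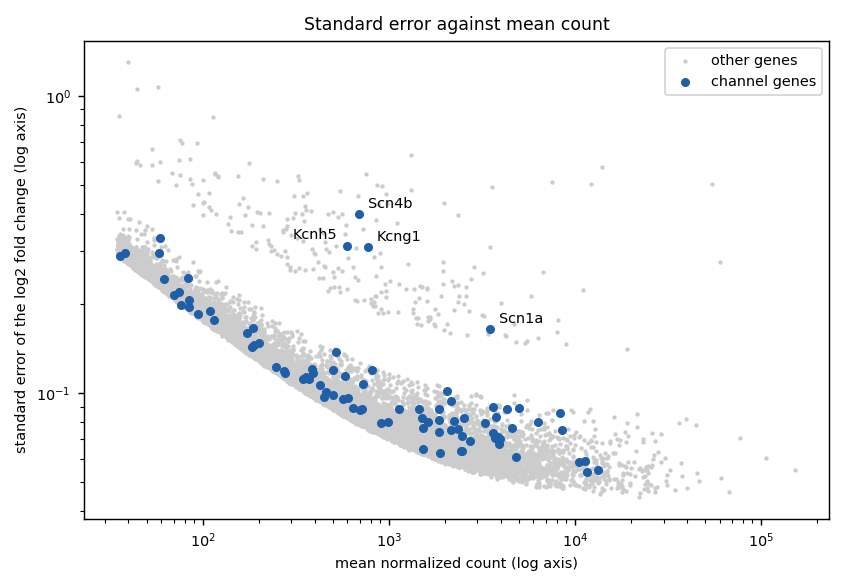
Standard error of the log2 fold change (vertical log axis) against the mean normalized count (horizontal log axis) for the genes with an adjusted p-value, in grey, with the 86 channel genes in blue. Scn4b, Kcng1, Kcnh5 and Scn1a, the 4 named points, lie more than 2-fold above genes of similar mean count.

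Proteins that assemble with, anchor or gate these channels were followed as a separate list of 35 genes, 34 of them in the table and 33 with an adjusted p-value. None of the 33 was under an adjusted p-value of 0.05, where 0.513% of all genes were. An unadjusted p-value under 0.05 belonged to 4 positive and 3 negative genes (12.1% and 9.09% of the 33, beside 4.56% and 3.54% of all genes), and the median log2 difference was -0.0089. Besides Pex5l, the positive genes were Cntn2, which holds Kv1 channels beside the node, the ankyrin gene Ank2 and the ubiquitin ligase gene Nedd4. The log2 differences were 0.44, 0.10 and 0.11 (adjusted p = 0.256, 0.584 and 0.647) in the authors' deposited table. The negative genes included the calmodulin gene Calm3 and the scaffold gene Dlg4. In the authors' deposited table these stood at -0.12 and -0.11 (adjusted p = 0.584 and 0.442). The ratio of the error of Cntn2 to that of genes of similar mean count was 2.49. The Kv4 partners Dpp6 and Dpp10 and the initial segment anchor Ank3 were at -0.067, -0.0067 and 0.081 (SE 0.060, 0.063 and 0.060) in the authors' deposited table. None of these 3 had an unadjusted p-value under 0.05.

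Markers of cortical layers and of other cells were read in the same comparison. The 10 deep-layer genes all had a positive sign (median log2 difference 0.49) and the 7 upper-layer genes a negative one (median -0.31) in the authors' deposited table. The 10 oligodendrocyte genes and the 8 striatal genes were all positive, with medians of 1.22 and 0.73. Of these lists, 5 of 10 deep-layer, 2 of 7 upper-layer, 1 of 8 striatal and 0 of 10 oligodendrocyte genes were under an adjusted p-value of 0.05, beside 0.513% of all genes. The striatal gene was Drd1, whose error ratio to genes of similar mean count was 1.25, where the median of the striatal list was 3.45. The median was -0.010 for 6 neuronal genes, namely Gad1, Gad2, Rbfox3, Slc17a7, Snap25 and Syt1. Of these 6, 2 were positive and 4 negative. Rbfox3 alone among them had an unadjusted p-value under 0.05, with a log2 difference of -0.17 in the authors' deposited table. Medians were -0.075 for 6 parvalbumin interneuron genes and -0.052 for 7 astrocyte genes. They were -0.13 for 4 microglial genes and -0.16 for 6 endothelial and mural genes. Slc17a7, which marks cortical excitatory neurons, had 6438 mean normalized counts per kb of exon, above all 108 channel genes. The part of layers and other cells in the values of Kcnip2, Kcnh3, Kcna1 and the other 12 channel genes with an unadjusted p-value under 0.05 was not tested.

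**Figure D4:**
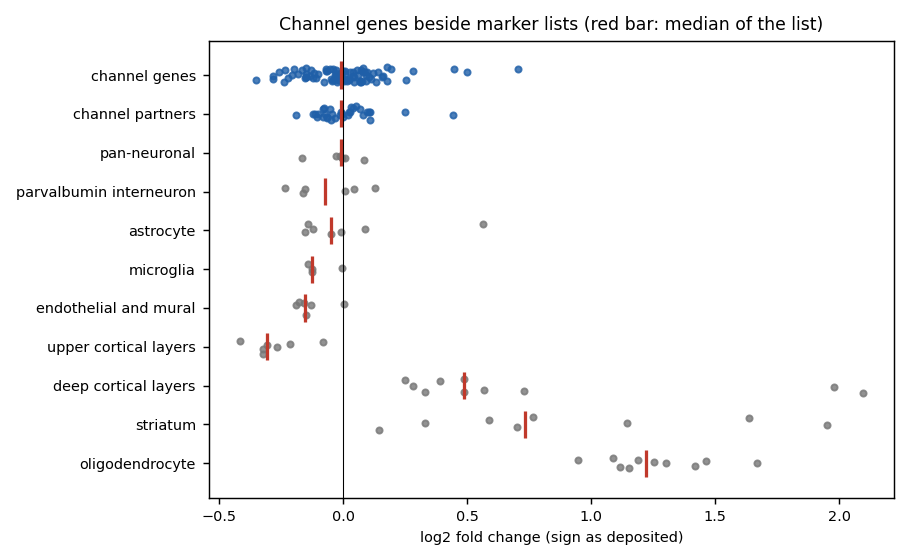
Log2 fold change of each gene with an adjusted p-value (points, horizontal axis, sign as in the authors' deposited table) in the channel genes, the channel partner list and 9 marker lists, with the median of each list as a red bar. The channel genes and their partners centre on 0, while the deep-layer, striatal and oligodendrocyte lists lie to the right of 0 and the upper-layer list to its left.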

How the data were processed

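Per the labels' protocols, libraries were made from 100 ng of RNeasy-extracted RNA with a KAPA mRNA HyperPrep kit. The submitters' processing notes name Trimmomatic, Subread, DESeq2 and mm10 without versions or roles. The strand setting and the gene annotation are not given in the sources used here. The authors deposited 1 table of their own comparison of the 3 CFC and 4 SC libraries. Per the file headers it holds for each gene a mean normalized count (a signal averaged over libraries), a log2 fold change with its standard error, a Wald score, and p-values before and after adjustment. The deposited Wald score equalled the log2 fold change over its standard error, and the p-value its two-sided normal probability. Adjusted p-values were deposited for mean counts of 34.9 and above. Depth per library is unknown.

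From these values, 95% intervals, subfamily medians and adjusted p-values under other settings were computed in Python 3.11.15 with SciPy 1.17.1. The code for intervals and adjustment was tested on changes simulated with normal errors of the deposited size. Such a simulation checks the code and cannot show whether the intervals hold for these libraries. Standard errors were compared with a running median over 501 genes. All 108 member IDs were found in GENCODE M21, a GRCm38 (mm10) annotation, whose merged exons gave the lengths. Exons of 33 members overlap another annotated gene.

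Named genes were those with an unadjusted p-value under 0.05, the fast-spiking set, the HCN genes, 4 brain sodium channel alpha and 4 beta subunits, the member with the highest mean count in each other subfamily, and the highest and lowest log2 fold change. Other members are given as examples within their subfamily. Some of the genes so chosen are not reported here. Members and lists were chosen with earlier results of these data known.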

Additional observations from a re-analysis of the deposited data

How the results depend on the processing

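No paired analysis was possible because single libraries have no values in the authors' table. For the same reason the fits that leave out a replicate, add a replicate block or use another normalization or count test were not run, and whether 1 library decides a value was not tested. The count of 0 channel genes under an adjusted p-value of 0.05 was also 0 at a threshold of 0.1, with no filter on the mean count and with genes under a mean count of 100 left out. Over these filters, the adjusted p-values of the 43 named genes that have one were above 0.05 in all 83 cases, and the smallest was 0.119, for Kcnip2 under the second of them. The Bonferroni adjustment, a null of at most a 1.2-fold change and division by the robust SD of the Wald statistic (1.01) can only raise these p-values, so their count of 0 says nothing about stability. The 15 channel genes with an unadjusted p-value under 0.05 became 17 over every listed member, 13 with a mean count of at least 100 and 15 after division by the robust SD. Of 47 recomputed medians of log2 fold change, 29 were over the same members and could not move. Of the 18 over other members, 17 moved by less than the median standard error, but 3 changed sign when low-count genes were added. The Kcnk median went from -0.033 to 0.037 and the Kcng median from 0.037 to -0.0052. Adding Kcnv2 turned the Kcnv median from -0.15, the value of Kcnv1 alone, to 0.012. Depth per library is unknown, and members with few counts, such as Kcns3, have intervals too wide to bound a moderate difference.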
